A study of Mus musculus with 18 samples.

Results

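Ubiquitin is made from several genes and is loaded onto proteins by a small set of enzymes. Here 5 mouse genes of that system were followed by their symbols in a table of 23420 gene rows: Ubb and Rps27a, which encode ubiquitin, Uba1 and Uba6, which encode the E1 enzymes that activate it, and Usp14, which encodes a deubiquitinase that binds the proteasome. All 5 were found and all 5 passed the filter on low counts. Their mRNA was measured by RNA-sequencing in NIH-3T3 cells, an immortalized mouse embryonic fibroblast line, in 18 libraries that form 6 groups of 3. The groups were wild-type (WT) cells in DMSO, WT cells in 200 nM carfilzomib (CFZ, an irreversible proteasome inhibitor) for 6 h, WT cells in 200 nM CFZ for 24 h, and the same 3 conditions in cells in which Nrf1 had been knocked out by CRISPR/Cas9 (Nrf1-KO). Nrf1, whose gene symbol is Nfe2l1, is the transcription factor that raises proteasome gene expression when the proteasome is blocked. No duration is given for DMSO, whether the Nrf1-KO line is a single clone is not stated, and the 6 h and 24 h comparisons of a line share its DMSO libraries.

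Ubiquitin is translated as a precursor. In Ubb, units of ubiquitin are joined head to tail, and deubiquitinases cut them apart. In Rps27a, a single unit is joined to a protein of the small ribosomal subunit, so that the gene supplies ribosomes and ubiquitin together. Uba1 activates ubiquitin for nearly all conjugating (E2) enzymes, whereas Uba6 works with Ube2z and also activates the ubiquitin-like modifier FAT10. Usp14 sits on the regulatory particle of the proteasome and trims ubiquitin from substrates before they are degraded. Heat shock and proteasome inhibition are known to raise the polyubiquitin genes, which refill the pool of free ubiquitin.

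The coding sequences show how differently the same protein is written in the 2 ubiquitin genes, and how far reads from them can be told apart. The coding sequence of Ubb held 4 ubiquitin units, which took up 99.3% of its 918 bases, and that of Rps27a held 1 unit, 48.4% of its 471 bases, followed by 80 codons of the ribosomal protein. All 5 units translate to the same 76 residues. Each of the Ubb units nevertheless differed from the Rps27a unit at 44 of 228 bases (80.7% identity), with no shared run longer than 20 bases. Below, 5′ to 3′, are the first and the last unit of Ubb (the + strand of chr11:62552146-62552373 and chr11:62552830-62553057) and the spliced unit of Rps27a (the − strand, 4 exons within chr11:29546384-29547728), all in GENCODE release M21 on GRCm38. Capitals mark the bases at which a Ubb unit differs from Rps27a, and in Rps27a those at which it differs from the first unit of Ubb.
Ubb unit 1: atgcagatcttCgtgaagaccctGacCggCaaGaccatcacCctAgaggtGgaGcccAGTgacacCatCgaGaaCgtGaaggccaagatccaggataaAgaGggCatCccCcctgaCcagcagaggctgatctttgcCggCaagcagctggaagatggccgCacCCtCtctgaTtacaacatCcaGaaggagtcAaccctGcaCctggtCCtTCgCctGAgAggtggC
Ubb unit 4: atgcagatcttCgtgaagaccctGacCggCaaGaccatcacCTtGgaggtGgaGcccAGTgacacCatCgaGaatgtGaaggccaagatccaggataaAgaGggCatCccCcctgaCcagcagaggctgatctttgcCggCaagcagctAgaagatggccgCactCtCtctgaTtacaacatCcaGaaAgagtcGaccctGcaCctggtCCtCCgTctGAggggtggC
Rps27a unit: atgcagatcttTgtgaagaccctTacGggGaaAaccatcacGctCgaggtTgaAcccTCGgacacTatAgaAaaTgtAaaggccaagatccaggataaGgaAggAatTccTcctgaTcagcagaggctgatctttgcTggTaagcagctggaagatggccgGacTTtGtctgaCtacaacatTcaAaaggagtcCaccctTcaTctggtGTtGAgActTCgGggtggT
The 4 Ubb units were much closer to each other, since units 2, 3 and 4 differed from unit 1 at 5, 2 and 10 bases.

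In the same annotation Ubb lay at chr11:62551171-62553213 on the + strand with its coding sequence in 1 exon, Rps27a at chr11:29545846-29548109 on the − strand, Uba1 at chrX:20658326-20683179 on the + strand, Uba6 at chr5:86109287-86172803 on the − strand and Usp14 at chr18:9993066-10045119 on the − strand. The annotation behind the counts is not given in the sources used here, nor is the way reads shared by several genes were assigned. Of all stretches as long as 1 sequencing read in the main transcript of each gene, 47.8% of those of Ubb also occurred in the pseudogenes Gm1821 and Gm8797, and 57.4% of those of Rps27a in Gm8430, Rps27a-ps2 or, on the opposite strand, Clhc1. For Usp14 44.4% also lay in Thoc1, a gene on the opposite strand that overlaps 26% of its exonic bases. No such stretch was found in Uba1 or Uba6. The libraries were stranded, but whether the counting used strand is not given, so reads of Usp14 and Thoc1 may not be fully separated.

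Library totals ran from 8333148 to 23917081 counts with a median of 14419832, and the closest library to each of the 18 was always one from the same group. The samples are labelled as separate replicates. Nfe2l1 was lower in the Nrf1-KO libraries in each condition, at 174.2 to 184.5 CPM (counts scaled to the library size) in DMSO against 437.1 to 456.7 in WT, at 413.4 to 426.9 against 627.5 to 650.3 at 6 h of CFZ and at 201.3 to 209.4 against 555.1 to 579.8 at 24 h. These counts cover the whole gene and give no reading of the protein. Of 11 fibroblast markers 10 had a median above 10 CPM. The remaining marker, Lum, was at 0 in 12 of 18 libraries. Of 11 markers of epithelial, endothelial, blood, neural and muscle cells 8 had a median under 1 CPM, and Epcam and Krt18 were at 0 in every library. The summed fibroblast markers were lower at 24 h of CFZ, at 8234 to 8519 CPM in WT and 11100 to 13170 CPM in Nrf1-KO, against 33080 to 35950 and 27680 to 33970 CPM in DMSO. The summed markers of the other cell types went the other way, to 42.28 to 48.7 CPM in WT and 75.88 to 76.9 CPM in Nrf1-KO, against 15.61 to 18.89 and 22.78 to 24.55 CPM in DMSO, and their most abundant member was the neuronal tubulin Tubb3, at 8.619 to 67.01 CPM over all libraries. They did not all rise. Of 5 tested at 24 h, 3 were called higher and 1 lower in each line. In WT 43.2% of all genes were called higher and 40.5% lower, and in Nrf1-KO 44.4% and 41.1%. The lower marker was the epithelial Cdh1, at −3.54 in WT and −4.87 in Nrf1-KO on the log2 scale. The part of these changes in the results below was not tested. In bulk RNA, fewer cells of a kind and less RNA per cell cannot be told apart.

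Expressed per kilobase of the main transcript, so that genes can be compared, Rps27a was by far the most abundant of the 5 in WT cells in DMSO, at 1170 ± 23.1 CPM per kb (mean ± SD, n = 3). Ubb followed at 84.3 ± 4.21, Uba1 at 73.4 ± 0.558 and Usp14 at 24.4 ± 1.16 CPM per kb, and Uba6 was lowest at 8.49 ± 0.304. At 24 h of CFZ in WT cells Ubb had risen to 823 ± 25.3 CPM per kb, against 1556 ± 9.31 for Rps27a. Per kb of all annotated exons the order of these genes was reversed in that group, with means of 736 for Ubb and 624 for Rps27a. Which of them was more abundant at 24 h therefore depends on the length used, and how shared reads were assigned is not known. Between the lowest and the highest group mean, Ubb spanned 11.53-fold, Usp14 2.819-fold, Rps27a 1.754-fold, Uba6 1.342-fold and Uba1 1.276-fold. The plot of levels in every library shows this contrast between Ubb and Usp14 on one side and the E1 genes on the other. All other levels below are CPM scaled by the trimmed mean of M values (TMM), without division by length.

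**Figure D1:**
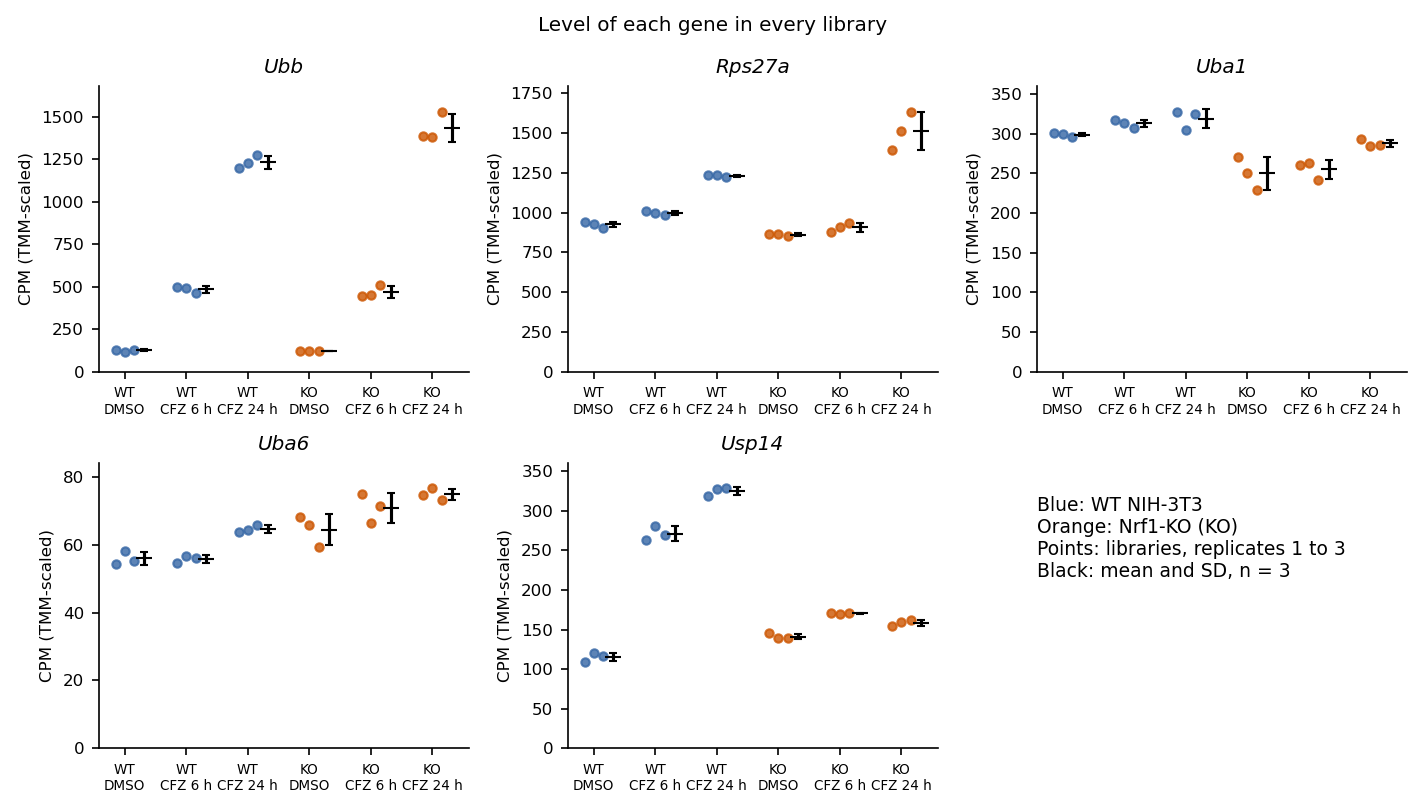
TMM-scaled CPM (vertical axes, each starting at 0) of each gene in the 18 libraries, by group on the horizontal axes, with WT in blue and Nrf1-KO in orange; points are libraries and black marks the mean and SD of 3. Ubb climbed with time in CFZ in both lines, from means of 126 and 124 to 1234 and 1434 CPM, whereas Usp14 climbed in WT to 325 CPM and reached at most 170 CPM on average in Nrf1-KO.

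Ubb rose with CFZ at both times and in both lines. In WT cells its level was 131.1, 119.2 and 128.7 CPM in the 3 DMSO libraries, 496.9, 493.0 and 463.0 CPM at 6 h and 1197, 1230 and 1273 CPM at 24 h. The groups did not overlap, and every treated library was above every DMSO library. This was a 3.832-fold rise at 6 h (log2 fold change 1.94 ± 0.0479 SE, adjusted p = 6.46e-26, edgeR quasi-likelihood test with Benjamini-Hochberg adjustment, as for every adjusted p below) and a 9.763-fold rise at 24 h (3.29 ± 0.0489, adjusted p = 4.26e-32). From 6 h to 24 h it rose a further 2.548-fold.

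In Nrf1-KO cells Ubb stood at 125.2, 123.1 and 124.6 CPM in DMSO, at 448.8, 451.3 and 508.0 CPM at 6 h and at 1389, 1384 and 1528 CPM at 24 h. The DMSO libraries of the lines overlapped, and so did their 6 h libraries. The rise was 3.769-fold at 6 h (1.91 ± 0.0481, adjusted p = 1.52e-25) and 11.53-fold at 24 h (3.53 ± 0.0491, adjusted p = 4.62e-33). At 6 h the difference between the responses of the lines was −0.02 on the log2 scale with a 95% interval of −0.1604 to 0.1124 (adjusted p = 0.811). At 24 h Ubb rose more in Nrf1-KO cells, by 0.24 on the log2 scale (0.1066 to 0.374, adjusted p = 0.00217), a difference of 1.181-fold, and each Nrf1-KO library was above each WT library at that time. The pseudogene Gm1821, which shares sequence with Ubb, moved in the same way, with log2 fold changes of 1.85 and 3.12 in WT and 1.79 and 3.47 in Nrf1-KO, and its mean ran from 19.3 CPM in WT cells in DMSO to 219.3 CPM in Nrf1-KO cells at 24 h. How many of those reads came from Ubb was not tested.

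Small changes were called for most genes in this data set, so the calls are set against the table as a whole. In WT cells 3 of the 5 genes were called at 6 h, all of them higher (Ubb, Rps27a and Usp14), where 71.9% of the 11762 genes tested were called in either direction. At 24 h all 5 were higher (83.8% of all genes called), and between 6 h and 24 h 4 were higher (72.4%). In Nrf1-KO cells 3 were higher at 6 h (Ubb, Uba6 and Usp14; 69.5%), 5 were higher at 24 h (85.5%), and between the times 3 were higher and Usp14 was lower (77.0%). Counted in either direction, the shares of the 5 genes called are near the background. A call by itself therefore says little here, and the sizes of the changes carry the comparison. The members called with CFZ against DMSO were all higher, so shares by direction are given too, also for the gene lists below. After 6 h in WT cells 35.6% of all genes were called higher and 36.2% lower, and after 24 h 43.2% and 40.5%. In Nrf1-KO cells the shares were 34.5% and 35.0% after 6 h and 44.4% and 41.1% after 24 h. Ubb ranked 124th from the highest of the 11762 log2 fold changes in WT cells at 6 h and 104th at 24 h, and 112th and 108th in Nrf1-KO cells. Usp14 ranked 331st and 541st in WT cells but only 3054th and 5106th in Nrf1-KO cells.

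**Figure D2:**
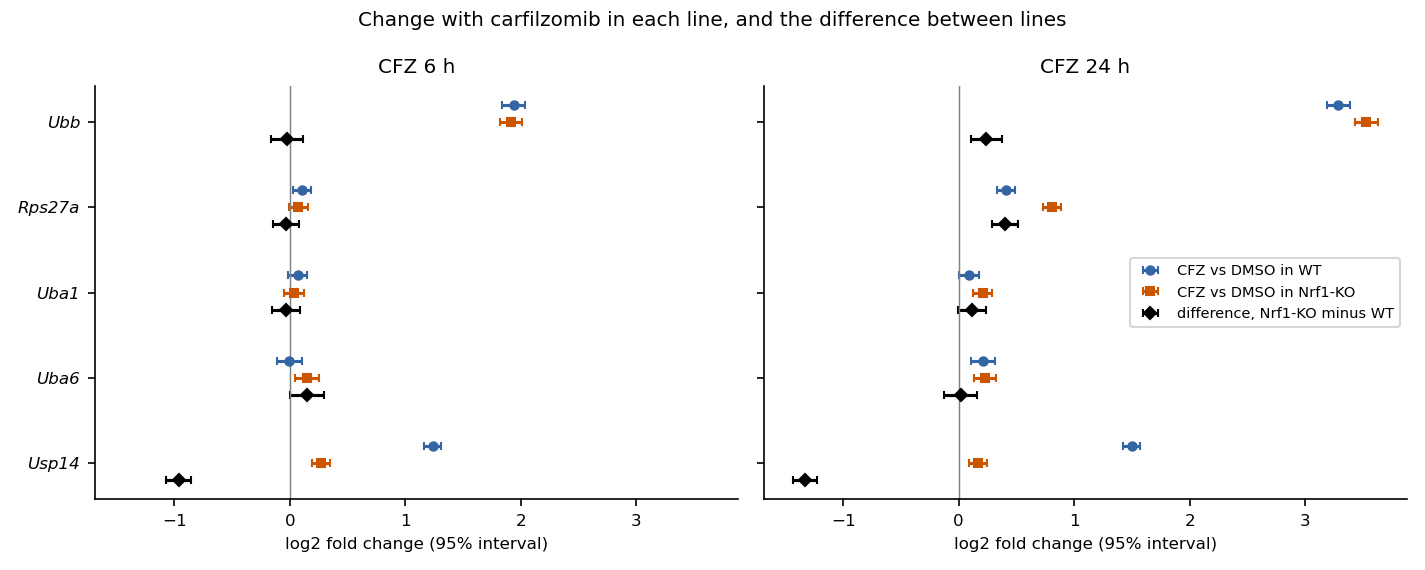
Log2 fold change of each gene with CFZ against DMSO in WT (blue circles) and Nrf1-KO cells (orange squares), and the difference between lines (black diamonds, Nrf1-KO minus WT), at 6 h (left) and 24 h (right); bars are 95% intervals from the edgeR fit. The difference for Usp14 is −0.96 at 6 h and −1.33 at 24 h, and the other differences lie between −0.03 and 0.40.

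Rps27a changed little at 6 h and rose at 24 h, more so in Nrf1-KO cells. In WT cells it was at 942.2, 929.1 and 906.2 CPM in DMSO, at 1010, 998.5 and 983.7 CPM at 6 h and at 1236, 1235 and 1223 CPM at 24 h. The 3 groups did not overlap. The rise was 1.077-fold at 6 h (adjusted p = 0.0152) and 1.33-fold at 24 h (log2 fold change 0.41 ± 0.0389, adjusted p = 2.76e-11). The call at 6 h was lost with DESeq2 (0.08, adjusted p = 0.0666) and without replicate 3 of WT DMSO (0.09, adjusted p = 0.0737), and its sign turned under upper-quartile scaling (−0.002) and under scaling by library size alone (−0.03).

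In Nrf1-KO cells Rps27a was at 867.0, 864.3 and 853.5 CPM in DMSO, at 879.2, 910.9 and 932.1 CPM at 6 h and at 1391, 1511 and 1632 CPM at 24 h. The 24 h libraries were above all others and also spread more widely than any other group of this gene (SD 120.3 CPM). The change at 6 h was 0.07 (adjusted p = 0.0917) and that at 24 h 0.81 ± 0.0389 (1.755-fold, adjusted p = 8.91e-19). The responses of the lines differed by −0.03 at 6 h (adjusted p = 0.68) and by 0.40 at 24 h (0.2883 to 0.5121, adjusted p = 2.08e-07). Its opposite-strand neighbour Clhc1 went the other way at 24 h, with log2 fold changes of −1.45 in WT and −2.73 in Nrf1-KO, from 12.1 and 14.5 CPM in DMSO.

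The other genes of the small ribosomal subunit also rose mainly at 24 h. Of 31 such genes, 6 were higher and 25 not called at 6 h in WT cells, and 27 were higher and 2 lower at 24 h, with a median log2 fold change of 0.269 beside 0.0232 over all genes tested. In Nrf1-KO cells at 24 h 30 were higher and 1 lower, with a median of 0.603 beside 0.0304. The difference between lines at 24 h was positive and called for 31 of 31, with a median of 0.382 beside 0.00489 and beside 29.7% of all genes called in that direction. Replicates 1 and 3 of Nrf1-KO at 24 h differed more than any other replicate pair, at a chi-square per degree of freedom of 8.469. Whether these genes share that spread was not tested, so the 31 calls are not taken as separate evidence. The lowest value at 24 h was that of Rps2 (−0.48 in WT and −0.18 in Nrf1-KO). The highest was that of Rps27 (0.67 ± 0.205 and 1.39 ± 0.202), which rests on few reads, at group means of 1.73 to 4.85 CPM. Fau, which is counted among the 31, encodes a further fusion of a ubiquitin-like protein to a ribosomal protein. It rose at 24 h by 0.47 in WT (adjusted p = 1.47e-11) and 0.96 in Nrf1-KO cells (adjusted p = 1.88e-19). Its changes at 6 h were 0.04 and 0.05 and were not called.

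Within a library, the count of Ubb relative to that of Rps27a does not depend on scaling between libraries. This ratio was 0.1365 ± 0.00726 in WT cells in DMSO and climbed to 0.4855 ± 0.0129 after 6 h and 1.002 ± 0.0365 after 24 h. In Nrf1-KO cells it was 0.1443 ± 0.00176, 0.517 ± 0.0254 and 0.95 ± 0.043. The rises were 1.83 and 2.88 on the log2 scale in WT and 1.84 and 2.72 in Nrf1-KO, each with groups that did not overlap and an exact two-sided permutation p of 0.1, the smallest that 3 libraries against 3 can give. Between lines the ratio differed by 0.08 in DMSO, 0.09 at 6 h and −0.08 at 24 h (exact permutation p = 0.1, 0.1 and 0.3). After 24 h of CFZ the counts of both genes were nearly equal in each line.

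Because a Ubb transcript carries 4 ubiquitin units and an Rps27a transcript 1, the level per kb was also multiplied by the number of units. Of the units carried by these 2 mRNAs together, Ubb held 21.31 to 23.06% in WT cells in DMSO, 49.83 to 51.03% at 6 h and 67.16 to 68.73% at 24 h. In Nrf1-KO cells it held 23.12 to 23.55%, 51.12 to 53.5% and 65.9 to 67.81%. With the length of all annotated exons in place of the main transcript the means in WT cells were higher, at 39.11%, 69.56% and 82.5%, so the order of the groups holds and the share itself depends on the length used. These shares count mRNA of Ubb and Rps27a only. They also depend on how reads that fit more than 1 place were counted, which is not known. Of the stretches as long as 1 read, 47.8% in Ubb and 57.4% in Rps27a also occurred in other genes. In Ubb 18.7% were repeated within its own transcript.

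**Figure D3:**
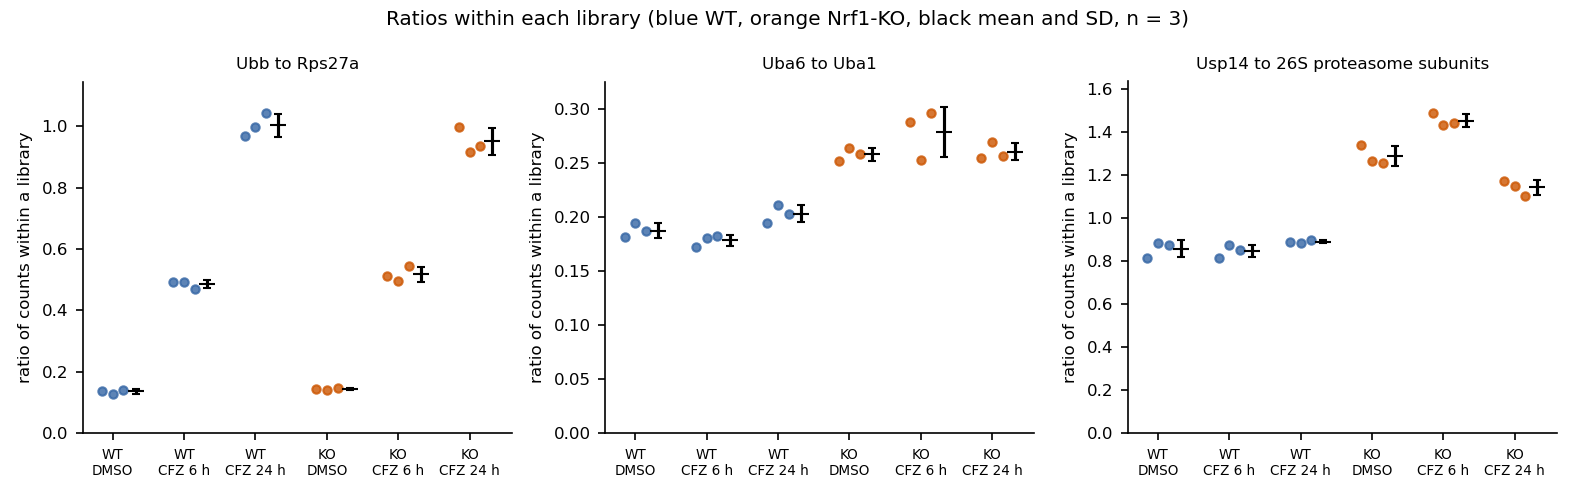
Ratio of counts within each library (vertical axes, starting at 0) for Ubb to Rps27a, Uba6 to Uba1 and Usp14 to the geometric mean of 32 proteasome subunit genes, by group, with WT in blue, Nrf1-KO in orange and the mean and SD of 3 in black. The first ratio climbs from about 0.14 to about 1 in both lines, the second is higher in every Nrf1-KO than in every WT library, and the third stays between 0.81 and 0.90 in WT and lies between 1.11 and 1.49 in Nrf1-KO.

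Uba1 was nearly flat with CFZ and lower in Nrf1-KO cells. In WT cells it was at 300.7, 299.3 and 296.2 CPM in DMSO, at 317.1, 313.9 and 307.7 CPM at 6 h and at 327.3, 305.1 and 324.6 CPM at 24 h. All treated libraries were above the DMSO libraries, by small amounts. The log2 fold change was 0.07 after 6 h (adjusted p = 0.157) and 0.09 after 24 h (adjusted p = 0.0407). The latter call did not survive DESeq2 (adjusted p = 0.128), turned sign under upper-quartile scaling (−0.04) and library size alone (−0.01), and was lost without any 1 of the 3 WT DMSO libraries or of the first or the third library at 24 h.

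In Nrf1-KO cells Uba1 was at 270.0, 250.3 and 229.5 CPM in DMSO, at 260.6, 262.7 and 241.4 CPM at 6 h and at 293.3, 284.6 and 285.7 CPM at 24 h. The 24 h libraries were above the others, and the DMSO and 6 h libraries overlapped. The change was 0.03 after 6 h (adjusted p = 0.487) and 0.21 after 24 h (1.154-fold, adjusted p = 4.19e-05), the latter falling to 0.02 (adjusted p = 0.575) with library size alone. Every Nrf1-KO library was below every WT library of the same condition, by 0.26 in DMSO (adjusted p = 3.85e-06), 0.29 after 6 h (adjusted p = 7.24e-07) and 0.15 after 24 h (adjusted p = 0.00254) on the log2 scale.

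Uba6, the less abundant E1, was higher in Nrf1-KO cells, the opposite of Uba1. Its level in WT cells was 54.4, 58.2 and 55.2 CPM in DMSO, 54.6, 56.7 and 55.9 CPM at 6 h and 63.7, 64.3 and 65.9 CPM at 24 h. In Nrf1-KO cells it was 68.0, 65.9 and 59.2 CPM in DMSO, 74.8, 66.2 and 71.3 CPM at 6 h and 74.7, 76.5 and 73.2 CPM at 24 h. The lines did not overlap in any condition, and Nrf1-KO cells were higher by 0.19 in DMSO (adjusted p = 0.00114), 0.34 after 6 h (adjusted p = 1.37e-06) and 0.21 after 24 h (adjusted p = 0.000309).

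With CFZ, Uba6 changed by −0.004 at 6 h (adjusted p = 0.95) and 0.21 at 24 h (1.157-fold, adjusted p = 0.000318) in WT cells, and by 0.15 (adjusted p = 0.00993) and 0.23 (adjusted p = 5.36e-05) in Nrf1-KO cells, where the 6 h and DMSO libraries overlapped. The differences between lines were 0.15 at 6 h (0.004664 to 0.2978, adjusted p = 0.0979) and 0.02 at 24 h (adjusted p = 0.851). Several of these calls turned on scaling: with library size alone the WT change was −0.14 after 6 h (adjusted p = 0.018) and 0.11 after 24 h (adjusted p = 0.0513), and the Nrf1-KO changes were 0.03 and 0.04. The Nrf1-KO call at 6 h was also lost without the third DMSO library (0.08, adjusted p = 0.175) or the first 6 h library (0.10, adjusted p = 0.122).

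The ratio of Uba6 to Uba1 counts, free of scaling, was 0.1872 ± 0.00683, 0.1782 ± 0.00528 and 0.2027 ± 0.00798 in WT cells for DMSO, 6 h and 24 h, and 0.2577 ± 0.00577, 0.2782 ± 0.023 and 0.2599 ± 0.00785 in Nrf1-KO cells. All 9 Nrf1-KO libraries were above all 9 WT libraries. The line difference was 0.46, 0.64 and 0.36 on the log2 scale in the 3 conditions, with an exact permutation p of 0.1 in each. With CFZ the ratio changed by −0.07 and 0.11 in WT and by 0.11 and 0.01 in Nrf1-KO, with exact permutation p-values from 0.1 to 0.7.

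The genes that work with Uba6 differed between lines in the other direction. Ube2z, its dedicated E2, was lower in Nrf1-KO than in WT cells by 0.24 after 6 h (adjusted p = 1.87e-07) and 0.16 after 24 h (adjusted p = 4.71e-05), with −0.05 in DMSO (adjusted p = 0.157). Birc6, a giant E2 and ligase that receives ubiquitin from Uba6, was lower by 0.32 in DMSO, 0.67 at 6 h and 1.02 at 24 h (adjusted p = 0.000129, 2.62e-10 and 8.24e-15). With CFZ, Ube2z rose by 0.20 after 6 h and 0.28 after 24 h in WT cells, and in Nrf1-KO cells it changed by 0.01 (adjusted p = 0.797) and rose by 0.17 (adjusted p = 6.41e-06). Birc6 rose by 0.51 and 0.45 in WT, whereas in Nrf1-KO it rose by 0.16 after 6 h (adjusted p = 0.0382) and fell by 0.25 after 24 h (adjusted p = 0.000973). The E1 enzymes of ubiquitin-like modifiers went in both directions. Of the 8, in WT cells 3 were higher and 2 lower at 6 h (median 0.122 beside −0.0191 over all genes tested) and 4 were higher and 2 lower at 24 h (0.223 beside 0.0232), and in Nrf1-KO cells 3 were higher with 1 lower at 6 h (−0.017 beside −0.00818) and 3 higher with 3 lower at 24 h (0.0681 beside 0.0304). At 24 h the NEDD8 E1 subunit Uba3 rose by 0.65 in WT and 0.43 in Nrf1-KO, and the SUMO E1 subunit Uba2 fell by 0.56 and 0.66. The lowest value at 6 h was that of Uba7, the E1 for ISG15, at −0.84 in WT (adjusted p = 0.00889) and −0.39 in Nrf1-KO (adjusted p = 0.184), at means of 0.87 to 1.77 CPM.

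Usp14 rose strongly with CFZ in WT cells and only slightly in Nrf1-KO cells. In WT cells it was at 109.2, 119.8 and 116.8 CPM in DMSO, at 262.8, 281.3 and 269.2 CPM at 6 h and at 319.1, 327.6 and 328.2 CPM at 24 h, with no overlap between groups. The rise was 2.354-fold at 6 h (log2 fold change 1.24 ± 0.0366, adjusted p = 9.2e-24) and 2.824-fold at 24 h (1.50 ± 0.0363, adjusted p = 1.28e-26). In Nrf1-KO cells it was at 145.4, 139.1 and 139.2 CPM in DMSO, at 170.9, 169.3 and 170.9 CPM at 6 h and at 154.2, 159.2 and 161.9 CPM at 24 h. These groups did not overlap either, although the changes were far smaller, at 1.207-fold at 6 h (0.27 ± 0.0374, adjusted p = 1.46e-07) and 1.123-fold at 24 h (0.17 ± 0.0365, adjusted p = 0.000105). From 6 h to 24 h Usp14 rose by 0.26 in WT (adjusted p = 5.14e-08) and fell by 0.10 in Nrf1-KO cells (adjusted p = 0.013).

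The response of Usp14 to CFZ differed between the lines by −0.96 on the log2 scale at 6 h (−1.07 to −0.8573, adjusted p = 7.59e-16) and by −1.33 at 24 h (−1.435 to −1.225, adjusted p = 5.71e-20). Of the 5 genes it was the only 1 with a called difference at 6 h, where 38.3% of all genes were called, and 1 of 3 at 24 h, beside Ubb and Rps27a, where 59.8% were called. The small rise in Nrf1-KO cells at 24 h rested on the scaling, since it was 0.06 under upper-quartile scaling (adjusted p = 0.14) and −0.02 under library size alone (adjusted p = 0.699). The difference between lines lay between −1.01 and −0.93 at 6 h and between −1.41 and −1.29 at 24 h over all 19 alternatives. The opposite-strand gene Thoc1 changed by 0.22 and 0.50 in WT and 0.41 and 0.72 in Nrf1-KO cells, a difference between lines of 0.19 at 6 h and 0.22 at 24 h, opposite in sign to that of Usp14.

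The 26S proteasome subunits, among which Usp14 acts, rose with CFZ in WT cells and much less in Nrf1-KO cells. Of 32 subunit genes, 32 were higher in WT cells at 6 h (median 1.21 beside −0.0191 over all genes tested) and 32 at 24 h (1.5 beside 0.0232). In Nrf1-KO cells 13 were higher, 5 lower and 14 not called at 6 h (median 0.0383 beside −0.00818), and 23 were higher and 3 lower at 24 h (0.312 beside 0.0304). The difference between lines was negative and called for 32 of 32 at both times, with medians of −1.15 and −1.13, beside 18.4% and 30.0% of all genes called in that direction. At 24 h the largest rise in WT cells was that of Psmb3 (2.07), and in Nrf1-KO cells Psma4 fell by 0.36 and Psmd11 rose by 1.31. This list was assembled knowing that the study examined proteasome genes in these libraries, so it is no independent evidence of their direction.

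The genes of proteins that receive and clear ubiquitin at the proteasome mostly rose more in WT than in Nrf1-KO cells, as Usp14 did. All of them but Uchl5 are also in the list of proteasome subunits above, so they are no separate evidence. Of 6 such genes, 6 were higher in WT cells at both times (35.6% and 43.2% of all genes were), with medians of 1.3 and 1.61 beside −0.0191 and 0.0232 over all genes, and 5 in Nrf1-KO cells at both times (34.5% and 44.4%), with medians of 0.25 and 0.558 beside −0.00818 and 0.0304. Psmd2, the subunit on which Usp14 docks, rose by 1.16 and 1.51 in WT and changed by −0.02 (adjusted p = 0.635) and 0.40 in Nrf1-KO cells. Psmd14, the metalloprotease that removes whole chains, rose by 1.17 and 1.26 in WT and by 0.26 and 0.71 in Nrf1-KO. From 6 h to 24 h in Nrf1-KO cells they were mostly unlike Usp14, which fell by 0.10. Over that time 5 of the 6 were higher and Uchl5 was lower (−0.26), beside 38.7% and 38.3% of all genes. Their median was 0.436 beside 0.0018 over all genes. Uchl5, the other cysteine deubiquitinase of the regulatory particle, was the exception to the difference between lines. It rose by only 0.24 at 6 h and 0.11 at 24 h in WT (adjusted p = 4.89e-05 and 0.0342), and its response differed between lines by −0.005 (adjusted p = 0.967) and −0.13 (adjusted p = 0.101). The plot of subunits beside Usp14 shows it within the cloud of its list.

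**Figure D4:**
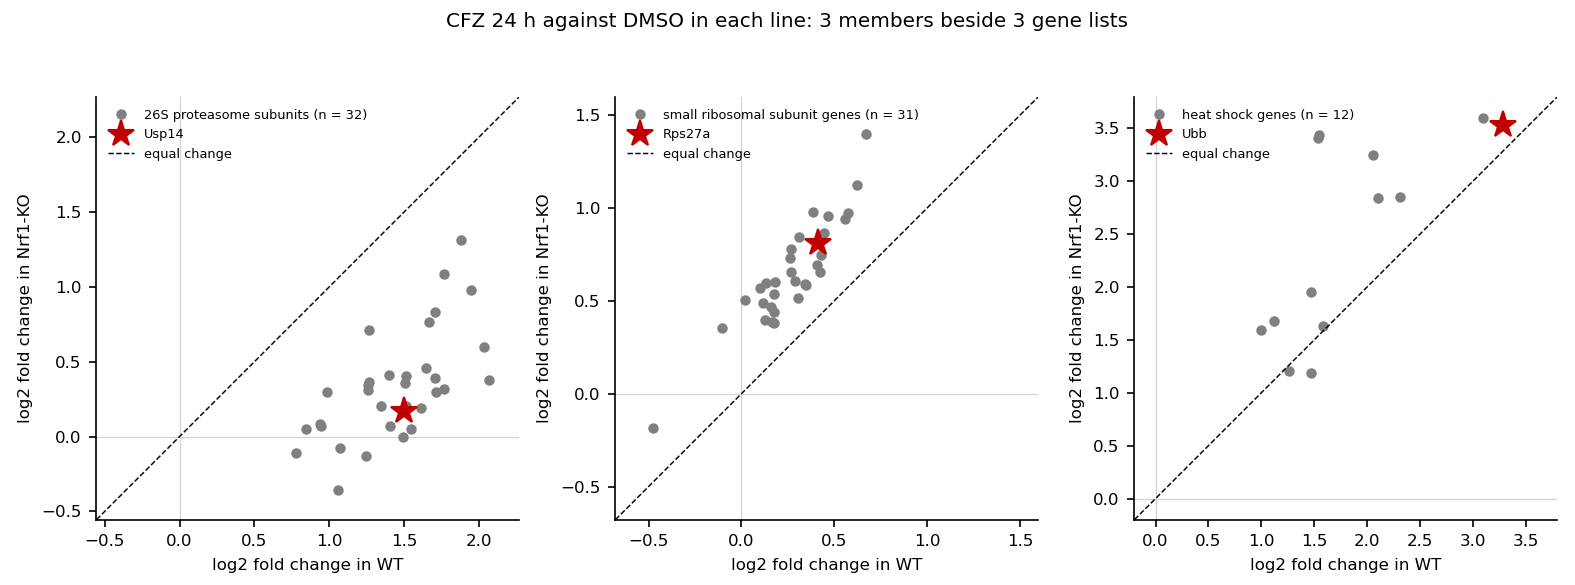
Log2 fold change at 24 h of CFZ against DMSO in WT (horizontal) and Nrf1-KO cells (vertical) for 32 proteasome subunit genes, 31 small ribosomal subunit genes and 12 heat shock genes (grey points), with Usp14, Rps27a and Ubb as red stars; the dashed line marks equal change. Usp14 and its list lie below the line (1.50 against 0.17 for Usp14), Rps27a and its list above it (0.41 against 0.81), and Ubb close to it (3.29 against 3.53).

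In DMSO, however, Usp14 and the subunits went opposite ways between the lines. In that comparison 4 of the 5 genes were called, where 54.7% of all genes were: Uba6 and Usp14 were higher in Nrf1-KO cells and Rps27a and Uba1 were lower. Usp14 was higher by 0.29 ± 0.0373 (1.226-fold, adjusted p = 6.73e-08), with every Nrf1-KO library above every WT library. Of the 32 subunit genes 29 were lower in Nrf1-KO cells and 1, Psmd2, was higher (by 0.15), with a median of −0.296 beside −0.0173 over all genes. The ratio of Usp14 to the geometric mean of the subunits was 0.8585 ± 0.0389 in WT cells in DMSO, 0.8486 ± 0.0289 at 6 h and 0.8909 ± 0.00674 at 24 h, changes of −0.02 and 0.05 on the log2 scale (exact permutation p = 0.7 and 0.2). In Nrf1-KO cells it was 1.289 ± 0.0474, 1.455 ± 0.0283 and 1.143 ± 0.0342, higher than in WT by 0.59, 0.78 and 0.36 (exact permutation p = 0.1 each). Thoc1 was lower in Nrf1-KO cells in DMSO by 0.19 (adjusted p = 0.000669).

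At 6 h of CFZ 4 of the 5 genes differed between lines (61.3% of all genes called): Uba6 was higher in Nrf1-KO cells, while Rps27a (−0.14, adjusted p = 0.0033), Uba1 and Usp14 were lower. For Rps27a that call was lost under upper-quartile scaling (−0.088, adjusted p = 0.0643) and library size alone (−0.069, adjusted p = 0.113). Usp14 was lower by 0.67 (adjusted p = 1.99e-16) at 6 h and by 1.04 at 24 h (adjusted p = 4.53e-22), 2.052-fold below WT. At 24 h all 5 differed (72.0% of all genes called), with Ubb (0.22, adjusted p = 4.43e-05), Rps27a (0.30, adjusted p = 4.6e-08) and Uba6 higher and Uba1 and Usp14 lower. In DMSO Rps27a was lower by 0.10 (adjusted p = 0.0242), a call that was lost with DESeq2 (adjusted p = 0.0507), under upper-quartile scaling (−0.090, adjusted p = 0.0631), under library size alone (−0.057, adjusted p = 0.207) and when the first or second WT library or the third Nrf1-KO library was left out (adjusted p = 0.176, 0.0566 and 0.0676). The small ribosomal subunit genes were lower in Nrf1-KO cells in DMSO (25 of 31, where 29.1% of all genes were; median −0.194 beside −0.0173) and at 6 h (30 of 31 where 30.8% were; −0.244 beside 0.00356), and higher at 24 h (23 of 31 where 35.6% were; 0.189 beside −0.00306), as was Rps27a.

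Ordered by their means, the groups of Ubb fell into pairs. The DMSO groups of both lines were lowest and overlapped, the 6 h groups came next and overlapped, and the 24 h groups were highest, with Nrf1-KO above WT and no overlap. For Usp14 no neighbours in the order overlapped, from WT in DMSO through Nrf1-KO in DMSO, at 24 h and at 6 h to WT at 6 h and 24 h. For Uba1 all Nrf1-KO groups lay below all WT groups. Its DMSO and 6 h groups overlapped in Nrf1-KO, and its 6 h and 24 h groups in WT. For Uba6 the order ran from WT at 6 h and in DMSO, which overlapped, through Nrf1-KO in DMSO and WT at 24 h, which overlapped, to Nrf1-KO at 6 h and 24 h, which overlapped. For Rps27a only Nrf1-KO at 6 h and WT in DMSO overlapped.

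The deubiquitinases that process precursors and recycle chains mostly rose in WT cells. Of 5 tested, 4 were higher and 1 lower in WT at both times, where 35.6% and 43.2% of all genes were higher, with medians of 0.305 and 0.543 beside −0.0191 and 0.0232 over all genes. In Nrf1-KO cells 3 were higher and 2 lower at 6 h (median 0.123 beside −0.00818) and 1 was higher and 1 lower at 24 h (−0.0405 beside 0.0304), where 34.5% and 44.4% of all genes were higher. Usp5, which takes apart unanchored chains, rose by 0.79 and 1.07 in WT and changed by −0.18 and −0.04 in Nrf1-KO cells, a difference between lines of −0.97 (adjusted p = 9.28e-17) and −1.11 (adjusted p = 8.53e-19). Uchl3, which trims short ends from ubiquitin precursors, was the lowest of the list in WT at both times (−0.24 and −0.24). Fam105b, an older symbol of Otulin, which cuts linear chains, rose by 0.54 in WT and 0.85 in Nrf1-KO at 24 h.

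Ubiquitin-like modifiers showed no common direction. Of 10 genes, 4 were higher and 3 lower in WT at 6 h (median 0.00814 beside −0.0191 over all genes) and 7 and 2 at 24 h (0.456 beside 0.0232), where 35.6% and 36.2% of all genes were higher and lower at 6 h and 43.2% and 40.5% at 24 h. In Nrf1-KO cells 4 were higher and 4 lower at 6 h (−0.0281 beside −0.00818; 34.5% and 35.0% of all genes) and 7 and 3 at 24 h (0.312 beside 0.0304; 44.4% and 41.1%). The counts at 6 h were near these shares. Urm1 had the largest rise in WT at 24 h (1.73), Atg12 the largest in Nrf1-KO (1.47), and Sumo3 the lowest value in both lines (−0.82 and −1.47). Sumo3 was also lower in Nrf1-KO than in WT cells in DMSO, at 4.58 ± 0.575 against 26.9 ± 1.59 CPM (log2 difference −2.55, adjusted p = 5.74e-20).

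The heat shock genes, which are induced by unfolded proteins, rose with Ubb. Of 12 tested, 12 were higher in each line at each time, beside 35.6% and 43.2% of all genes in WT and 34.5% and 44.4% in Nrf1-KO. The medians in WT were 2.37 at 6 h and 1.54 at 24 h (−0.0191 and 0.0232 over all genes), and in Nrf1-KO 2.49 and 2.4 (−0.00818 and 0.0304). Their time course in WT differed from that of Ubb. From 6 h to 24 h, 9 of 12 were lower, beside 35.4% of all genes, with a median of −0.891 beside 0.0109. Ubb was 2.548-fold higher over that time. Hspa8 was among the 2 heat shock genes that were higher, with 2.09 at 6 h and 3.09 at 24 h. The contrast was smaller in Nrf1-KO cells. There 5 were higher and 7 lower from 6 h to 24 h, beside 38.7% and 38.3% of all genes. Their median was −0.279 beside 0.0018, and Ubb was 3.06-fold higher. The difference between lines at 24 h was positive and called for 9 of 12, beside 29.7% of all genes, with a median of 0.55 beside 0.00489. It was negative for Hspa4l (−0.28, adjusted p = 1.72e-06). The largest was that of Hspa1b (1.89, adjusted p = 3.98e-20), followed by that of its near-identical copy Hspa1a (1.87), and reads may have been split between these copies in unknown ways. For Ubb that difference was 0.24.

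Promoter windows, from 250 bases before to 50 after a start site, were taken from RefSeq (GRCm38.p6). They were used for 2 of the 5 genes, Ubb with 2 starts and Uba1 with 3. No window of the other genes, Usp14 among them, is reported here. They are shown for Ubb because it had the largest changes. The patterns were searched on both strands: GAANNTTC and TTCNNGAA, the facing pairs of the heat shock element, found in 7.86% and 8.52% of 32851 such windows, TGACNNNGC, the core of the antioxidant response element, in 12.4%, and TGATGNAA, the core of an ATF4 element, in 3.97%. The upstream window of Ubb (chr11:62550921-62551220, + strand) held none of them. The downstream one (chr11:62551481-62551780, + strand) held 1 match to TGACNNNGC, at bases 222 to 230, and on the opposite strand 1 match to TGATGNAA, at bases 95 to 102, both in capitals. The 3 windows of Uba1 held none. A match describes letters and shows no binding.
Ubb, upstream start: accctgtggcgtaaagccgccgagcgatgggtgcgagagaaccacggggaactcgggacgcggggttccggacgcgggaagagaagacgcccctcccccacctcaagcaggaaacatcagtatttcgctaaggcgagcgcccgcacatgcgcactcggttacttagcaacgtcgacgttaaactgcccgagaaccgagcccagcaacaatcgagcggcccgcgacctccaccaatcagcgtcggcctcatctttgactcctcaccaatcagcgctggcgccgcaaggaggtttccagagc
Ubb, downstream start: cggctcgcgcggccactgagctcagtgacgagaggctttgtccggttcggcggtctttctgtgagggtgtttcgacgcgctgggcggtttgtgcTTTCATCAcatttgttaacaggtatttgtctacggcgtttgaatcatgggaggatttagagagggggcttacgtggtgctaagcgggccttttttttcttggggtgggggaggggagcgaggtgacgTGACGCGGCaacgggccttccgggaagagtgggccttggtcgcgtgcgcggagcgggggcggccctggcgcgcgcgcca

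Across the 18 libraries, the genes whose log2 CPM was most like that of each member were taken from 9044 tested genes with a mean of at least 10 CPM. The libraries share their conditions, so these correlations describe shared group differences and are given without a test. For Ubb they were the pseudogene Gm1821 (Pearson r = 0.9978), Ist1 (0.997) and Ier5 (0.9969). For Rps27a they were all ribosomal protein genes: Rpl12 (0.9941), Rps23 (0.9928) and Rps19 (0.9922). Usp14 was most like Abcf3 (0.9872) and Ptk2 (0.9838). For Uba1 they were Ddb1 (0.9494), Upf1 (0.9379) and Exoc6b (0.9361), and for Uba6 Rere (0.9433), Bmp2k (0.9398) and Sema5a (0.9328).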

How the data were processed

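RNA-sequencing of NIH-3T3 cells gave 18 libraries, 3 labelled replicates in each of 6 groups. The authors made stranded mRNA libraries with paired reads, ran RNA Express (STAR and DESeq2, versions not given in the sources used here) and deposited raw counts per gene symbol. The build, annotation and use of strand are not given there either. The counts were fitted with edgeR 4.0.16 (R 4.3.3) after filterByExpr (minimum count 10, minimum total 15), TMM scaling and one quasi-likelihood model of the 6 groups. Benjamini-Hochberg adjustment covered 11762 genes, the threshold was 0.05 with no minimum fold, and a standard error is the log2 fold change divided by the square root of F. Small changes pass, since the common biological coefficient of variation was only 3.13%. Replicate pairs gave a chi-square per degree of freedom from 1.438 to 8.469, above sampling noise. Simulated counts with known changes were used to check the scripts.

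The members and the gene lists were chosen with earlier results of these data known. Genes named from the lists are some of the largest rises and falls and genes with a role shared with a member. The largest rise or fall of a list is not named for every comparison. Also named are the 5 members and the 3 genes most correlated with each member. Other ubiquitin-coding genes and 1 of these correlated genes are not reported here. The p-values set differences between groups against the spread between these samples. That spread holds no variation between separate knockout lines. Alternatives were DESeq2 1.42.0, upper-quartile scaling, library size alone, no expression filter, a mean count of at least 10, a block for the replicate number, a fit of the compared groups alone and leaving out each library.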

Additional observations from a re-analysis of the deposited data

Results flagged for a closer look

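In 4 results the response differed between the lines by a test of the difference itself, the interaction of line and CFZ in the edgeR model (quasi-likelihood test, Benjamini-Hochberg adjustment). Usp14 responded less in Nrf1-KO than in WT cells, by −0.96 on the log2 scale at 6 h (adjusted p = 7.59e-16) and by −1.33 at 24 h (adjusted p = 5.71e-20). At 24 h the responses of Ubb and Rps27a were larger in Nrf1-KO cells, by 0.24 (adjusted p = 0.00217) and 0.40 (adjusted p = 2.08e-07). These 4 calls held in all 19 alternatives run for each, with adjusted p-values of at most 4.06e-14, 3.09e-16, 0.0274 and 3.95e-06.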

How the results depend on the processing

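The rises of Ubb in both lines, of Usp14 in WT cells and of Rps27a at 24 h, and the difference between lines for Usp14, kept their direction and stayed past the threshold in every alternative run, as did the higher Uba6 and lower Uba1 in Nrf1-KO cells. The calls that changed were of small size, and scaling moved most of them: library size alone shifted the median log2 fold change of all genes by −0.132 and −0.105 in WT and −0.113 and −0.183 in Nrf1-KO cells (6 h and 24 h), and upper-quartile scaling by −0.109, −0.137, −0.074 and −0.109, so a change is best read against that shift. The share of called genes that were higher went from 49.6% to 35.4% with library size alone in WT cells at 6 h. Values are log2 fold changes, and other causes were not tested.

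With library size alone, calls were lost for Rps27a in WT at 6 h (−0.025), Uba1 in WT (−0.012) and Nrf1-KO (0.025) at 24 h, Uba6 at 24 h in WT (0.11) and in Nrf1-KO at 6 h (0.035) and 24 h (0.044), Usp14 in Nrf1-KO at 24 h (−0.015), and the lower Rps27a of Nrf1-KO in DMSO (−0.057) and at 6 h (−0.069), and 1 was gained for Uba6 in WT at 6 h (−0.14). With upper-quartile scaling the corresponding values were −0.0019, −0.044 (WT), 0.073 (Uba6 in WT at 24 h), 0.073 (Nrf1-KO at 6 h), 0.058, −0.090 and −0.088, and calls were gained for Uba6 in WT at 6 h (−0.11) and for the differences between lines of Uba6 at 6 h (0.19) and Uba1 at 24 h (0.14). DESeq2 lost Rps27a (0.083) in WT at 6 h, Uba1 (0.075) in WT at 24 h, Uba6 (0.12) in Nrf1-KO at 6 h and Rps27a (−0.094) between lines in DMSO. Without an expression filter Rps27a (0.079), Uba1 (0.037) and Uba6 (0.098) of the first 3 of these were lost. With the compared groups only, Uba1 in WT was lost at 24 h (0.060) and gained at 6 h (0.066), and Rps27a in Nrf1-KO was gained at 6 h (0.074).

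Leaving out 1 library at a time changed calls for Rps27a in WT at 6 h (0.090 to 0.13), Uba1 in WT at 24 h (0.066 to 0.12), Uba1 in Nrf1-KO at 6 h (−0.028 to 0.094), Uba6 in Nrf1-KO at 6 h (0.078 to 0.20) and from 6 h to 24 h (0.029 to 0.13), Rps27a between lines in DMSO (−0.12 to −0.073), Ubb between lines at 6 h (−0.11 to −0.017), and the differences between lines of Uba6 at 6 h (0.084 to 0.20) and Uba1 at 24 h (0.051 to 0.17). The last 2 were gained without the first Nrf1-KO DMSO library (0.19 and 0.17), and Ubb without the third Nrf1-KO library at 6 h. The labels do not say whether same-numbered libraries were prepared together. Their deviations from the group means correlated at 0.0136 on average over 45 pairs (−0.0494 to 0.0972). No shared deviation was seen, which cannot show that they were prepared apart. With the replicate block no call on a member changed, and the differences between lines for Usp14 were −0.96 and −1.33. A mean count of at least 10 changed none either.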
